A study of Homo sapiens with 18 samples.

Results

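The genes that build fatty acids and esterify them into triglycerides were followed through normoxia and hypoxia in 3 human cell lines. The set holds 34 genes, chosen by name for their step in the pathway, out of 23106 genes counted in every sample. PolyA+ RNA was sequenced from HKC-8 cells (an established line of kidney proximal tubule), RCC4 cells (a kidney cancer line) and HepG2 cells (a hepatocellular cancer line), with 3 normoxic and 3 hypoxic samples of each and 18 samples in all. The labels give hypoxic HKC-8 and HepG2 cells 0.5% oxygen for 16 h, although the hypoxic HKC-8 titles say 0.1, and they give hypoxic RCC4 cells 1.0% oxygen for 24 h, where the study's text gives one exposure for all lines. The titles of the normoxic HKC-8 samples give 21% oxygen, and the other normoxic samples are labelled only as normoxia. RCC4 cells lack functional VHL, the protein that marks HIF-α for destruction, and these samples are labelled RCC4+VHL, cells to which VHL was returned. Each cell line stands for its tissue through 1 cultured line only. Nothing in the labels says that replicates came from separate cultures, so p-values measure the spread between these samples, which may be technical.

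HKC-8 samples held 75441764 to 97984260 counts each, RCC4 samples 42045335 to 51794355 and HepG2 samples 40915980 to 48355303. Replicates of a group differed by more than sampling noise in every pair, with a chi-square per degree of freedom of 4.57 to 91.5. Of 8 genes known to rise in hypoxia, all 8 rose in HKC-8 and in HepG2 cells, and all 6 that could be tested rose in RCC4 cells. VEGFA, the vascular growth factor, rose by 1.72, 0.87 and 1.38 on the log2 scale in HKC-8, RCC4 and HepG2 cells. CA9, a carbonic anhydrase, rose by 4.92 in HKC-8 and 8.45 in HepG2 cells, but in RCC4 cells it had no count in normoxia and 6, 4 and 3 counts in hypoxia and was not tested. The summed level of 8 liver markers was 23966 to 29731 CPM (counts per 1e6 counts, TMM-normalized) in HepG2 cells with all 8 detected, 8.97 to 11.3 CPM in RCC4 and at most 0.527 CPM in HKC-8 cells. The summed level of 7 renal epithelial markers was 487 to 635 CPM in RCC4 samples, 134 to 182 CPM in HKC-8 samples and 11.9 to 18.2 CPM in HepG2 samples. Of these markers, PAX8 had 10673 to 14934 counts per HKC-8 sample, 5133 to 6876 per RCC4 sample and 392 to 535 per HepG2 sample. PAX2 had 1463 to 2325 counts and CDH6 had 9270 to 12025 counts per sample in RCC4 cells. In HKC-8 cells PAX2, LHX1, LRP2 and CDH6 had 0 to 7 counts per sample, so its renal sum, although higher than that of HepG2 cells, came mostly from PAX8.

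Cells make fatty acids from acetyl-CoA, which acetyl-CoA carboxylase turns into malonyl-CoA and fatty acid synthase joins into palmitate. Elongases lengthen the chain, desaturases add double bonds, and acyl-CoA synthetases activate fatty acids for further use. Triglyceride is then built on glycerol-3-phosphate by successive acyltransferases, with a phosphatase step by the lipins between them, and DGAT enzymes add the last acyl chain. The liver is a principal site of this synthesis, and SREBP transcription factors drive many of its genes when sterols or lipids are short. Under low oxygen, cells are known to rely more on lipid uptake and storage, and the desaturation steps themselves consume oxygen.

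Promoters of 4 members are printed here because these genes showed the largest fold changes among the members, THRSP and ACSS2 in HKC-8 cells and AGPAT2 and GPAM in HepG2 cells. Each sequence is the 250 bases before the RefSeq gene start (GRCh38.p14), read 5′ to 3′ on the gene's strand, and RefSeq promoters were matched for 28 of the 34 members. THRSP lies at chr11:78063611-78063860 (plus strand), AGPAT2 at chr9:136687458-136687707 (minus), GPAM at chr10:112183766-112184015 (minus) and ACSS2 at chr20:34876362-34876611 (plus). Capitals mark the motifs that were searched on both strands, which were ACGTG and GCGTG (the core that HIF binds), CACGTG (an E-box, which contains ACGTG), TCACNCCAC (a form of the sterol response element) and CCAAT (the site of NF-Y).
THRSP: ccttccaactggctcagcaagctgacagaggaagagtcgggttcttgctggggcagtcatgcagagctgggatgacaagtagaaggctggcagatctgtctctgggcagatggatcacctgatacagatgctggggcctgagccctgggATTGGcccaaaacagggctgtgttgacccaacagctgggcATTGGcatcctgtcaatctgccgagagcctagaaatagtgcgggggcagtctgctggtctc
AGPAT2: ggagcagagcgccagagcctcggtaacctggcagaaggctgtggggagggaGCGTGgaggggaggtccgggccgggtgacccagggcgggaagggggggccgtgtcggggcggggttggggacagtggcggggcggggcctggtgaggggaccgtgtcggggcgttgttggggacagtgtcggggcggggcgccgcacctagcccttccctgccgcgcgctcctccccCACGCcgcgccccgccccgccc
GPAM: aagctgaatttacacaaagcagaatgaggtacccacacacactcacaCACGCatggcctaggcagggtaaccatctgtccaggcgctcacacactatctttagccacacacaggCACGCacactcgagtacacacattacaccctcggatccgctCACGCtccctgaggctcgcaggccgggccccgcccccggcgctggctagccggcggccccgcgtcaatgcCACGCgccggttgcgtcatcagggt
ACSS2: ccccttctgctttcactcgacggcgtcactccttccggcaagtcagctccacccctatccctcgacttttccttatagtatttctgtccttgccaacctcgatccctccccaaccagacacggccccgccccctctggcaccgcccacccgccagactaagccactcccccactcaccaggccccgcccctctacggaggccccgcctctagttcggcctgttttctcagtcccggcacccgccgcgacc
The GPAM promoter held GCGTG 4 times, read as CACGC on the printed strand, and the AGPAT2 promoter held it 2 times. The THRSP promoter held CCAAT 2 times, both read as ATTGG, and the ACSS2 promoter held none of the motifs. Among the 28 promoters, GCGTG was found in 14, against 31.5% of all 27305 RefSeq promoters of this length. ACGTG was found in 6 (18.3% of all promoters), CCAAT in 11 (32.7%), CACGTG in 2, those of ELOVL5 and LPIN2 (6.28%), and TCACNCCAC in 0 (0.908%). GPAM, with the most GCGTG matches, fell in hypoxic HKC-8 and HepG2 cells and did not pass the test in RCC4 cells. AGPAT2 rose in HepG2 cells, with smaller changes in the other lines that are given below. A match to these letters is a description of the sequence and not of binding.

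The members called under hypoxia went both ways in each cell line. In HKC-8 cells 33 members could be tested, of which 12 rose and 3 fell (edgeR quasi-likelihood test with Benjamini-Hochberg adjusted p under 0.05), while 11.2% of all genes tested rose and 9.12% fell. In RCC4 cells 6 of 31 members rose and 10 fell, where 25.9% of all genes rose and 24.2% fell. In HepG2 cells 7 of 32 rose and 14 fell, where 19.9% of all genes rose and 19.2% fell. All genes tested had a median log2 fold change of 0.00 in each line, and the members had 0.18 in HKC-8 cells, -0.01 in RCC4 cells and -0.10 in HepG2 cells. The genes that rose in all 3 lines were SCD, AGPAT5, LPIN2 and LPIN3, and 0 fell in all 3. Both directions were called for ACSL3 and FADS1 (up in HKC-8, down in RCC4), for ACSS2, ELOVL7 and LPIN1 (up in HKC-8, down in HepG2), for ELOVL6 (down in HKC-8 and HepG2, up in RCC4) and for ACSL3 (down in RCC4, up in HepG2). The 5 members called in no line were ACSL5, AGPAT1, AGPAT3, AGPAT4 and MOGAT1. MOGAT1 was too low to be tested in HKC-8, THRSP, ELOVL2 and MOGAT1 in RCC4, and THRSP and SCD5 in HepG2 cells.

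The HKC-8 count depended on single samples and on the pairing of samples. It was 4 without normoxic replicate 1 or without hypoxic replicate 1, and 5 without normoxic replicate 2 or without hypoxic replicate 3. In HKC-8 cells the same-numbered normoxic and hypoxic samples deviated together, and with the replicate number as a block 16 members rose and 4 fell, where 21% of all genes rose and 21.6% fell. The members gained by the block were SCD5 (0.22, adjusted p = 0.0359), AGPAT6 (0.17, adjusted p = 0.0449), AGPAT2 (0.34, adjusted p = 0.0247), DGAT2 (0.40, adjusted p = 0.0207) and ACSL4, which was lower (-0.20, adjusted p = 0.0421). With the block ACACA, THRSP, FADS1, ELOVL7, AGPAT5, LPIN1, LPIN2 and the regulator SREBF1 stayed called in HKC-8 cells (adjusted p = 0.000302, 0.0128, 0.00022, 0.000929, 0.00257, 0.00102, 0.0022 and 0.000564). Their calls were lost without certain single samples, as given below, in fits that had no block. The HepG2 count of 14 that fell was 9 without hypoxic replicate 2. FASN, LPIN1 and DGAT2 lost their HepG2 calls there, as did some of ACSS1, ELOVL1, ELOVL5 and AGPAT6. The RCC4 count of 10 that fell was 4 when all 18 samples entered 1 fit and shared 1 estimate of the spread. FASN, FADS1 and ACSL1 lost their RCC4 calls in that fit, as did most of ACSS1, SCD5, FADS3, ELOVL5 and ACSL3. The share of all genes called was not counted in the fits without 1 sample or in the fit of all 18 samples. These drops therefore cannot be read as particular to the members.

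**Figure D1:**
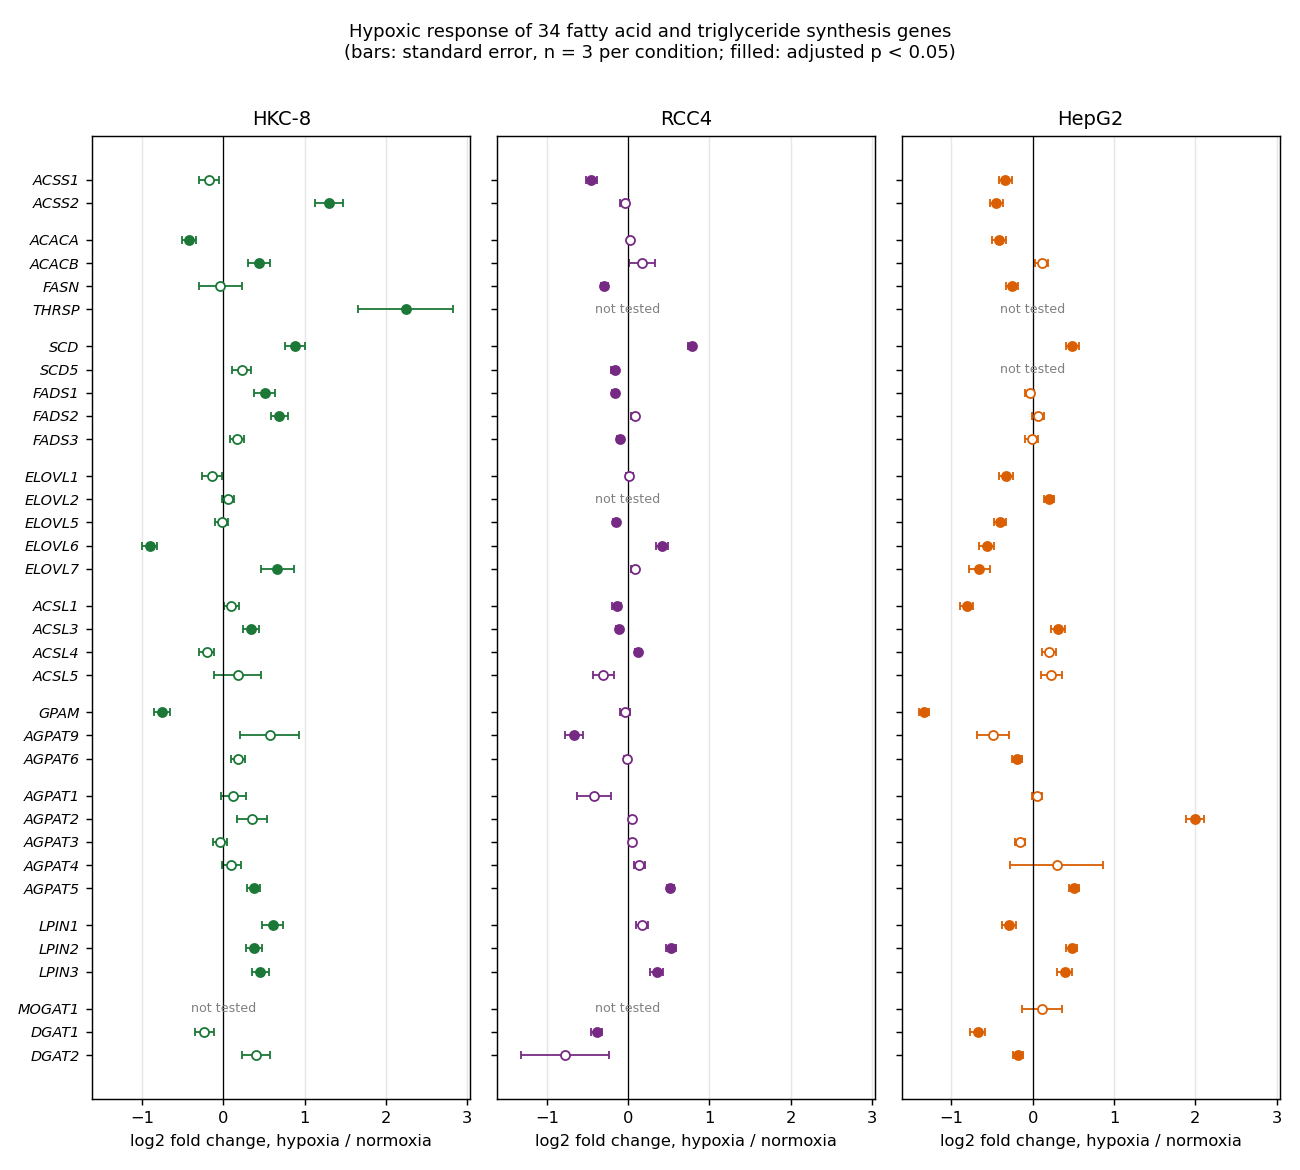
Log2 fold change of hypoxia over normoxia for each member in HKC-8, RCC4 and HepG2 cells, grouped by step of the pathway, with bars for the standard error (3 samples per condition) and filled points for adjusted p under 0.05. SCD, AGPAT5, LPIN2 and LPIN3 lie to the right of 0 in all 3 panels, while GPAM lies furthest left (-1.34) and AGPAT2 furthest right (2.00) in HepG2 cells.

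Of the enzymes that activate acetate, ACSS2 rose in HKC-8 and fell in HepG2 cells. ACSS2, the cytosolic acetyl-CoA synthetase (GRCh37 chr20:33459949-33515765, plus strand), had 25.2, 29.1 and 41.9 CPM in normoxic HKC-8 samples 1 to 3 and 87.3, 76.1 and 72.8 CPM in hypoxic ones. All hypoxic samples lay above all normoxic ones, and the log2 fold change was 1.30 (SE 0.17, adjusted p = 0.0017). In HepG2 cells ACSS2 went from 61.7, 50.7 and 60.8 CPM to 45.1, 40.3 and 41.5 CPM, again without overlap, and fell by 0.45 on the log2 scale (SE 0.08, adjusted p = 0.000618). In RCC4 cells its samples stood between 32.7 and 35.5 CPM in both conditions, with the hypoxic ones slightly below the normoxic ones (-0.04, SE 0.05, adjusted p = 0.523). The mitochondrial enzyme ACSS1 fell in RCC4 (-0.45, adjusted p = 1.18e-05) and HepG2 cells (-0.34, adjusted p = 0.00311) and was at -0.17 in HKC-8 cells (adjusted p = 0.353). Per kilobase of transcript, ACSS2 thereby made up 74.4% of the pair's level in normoxic and 89.2% in hypoxic HKC-8 cells.

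The genes of palmitate synthesis itself did not rise in any line, apart from the minor carboxylase and THRSP in HKC-8 cells. ACACA, the cytosolic acetyl-CoA carboxylase that commits carbon to fatty acids (chr17:35441927-35766927, minus strand), had 203, 227 and 190 CPM in normoxic and 153, 161 and 149 CPM in hypoxic HKC-8 samples. It fell by 0.42 on the log2 scale (SE 0.09, adjusted p = 0.0109), a call that was lost without hypoxic replicate 1 (-0.41, adjusted p = 0.0536). HepG2 cells showed a fall of like size, from 109, 93.1 and 121 CPM to 76.9, 79.8 and 85.7 CPM (-0.41, SE 0.08, adjusted p = 0.00147). The hypoxic samples lay below the normoxic ones in both of these lines. RCC4 samples stood between 141 and 145 CPM in both conditions, with the hypoxic ones slightly above the normoxic ones (0.03, SE 0.03, adjusted p = 0.5). ACACB, the carboxylase of the mitochondrial surface, rose in HKC-8 cells (0.44, adjusted p = 0.0485), and was at 0.17 in RCC4 and 0.11 in HepG2 cells. The HKC-8 call of ACACB was lost without normoxic replicate 1 or 2 or hypoxic replicate 1. With the replicate block it was kept (adjusted p = 0.00753).

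FASN, fatty acid synthase (chr17:80036214-80056170, minus strand), had 548, 560 and 278 CPM in normoxic and 486, 544 and 316 CPM in hypoxic HKC-8 samples. Replicate 3 was low in both conditions, and the groups overlapped. The log2 fold change was -0.04 with an SE of 0.27 (adjusted p = 0.936), and its sign turned when single samples were left out (-0.30 to 0.16). With the replicate block the log2 fold change was -0.005 (adjusted p = 0.961). In RCC4 cells FASN went from 324, 336 and 327 CPM to 289, 249 and 264 CPM (-0.29, SE 0.04, adjusted p = 3.23e-06). In HepG2 cells it went from 863, 709 and 773 CPM to 667, 610 and 682 CPM (-0.26, SE 0.07, adjusted p = 0.0138). Neither of these groups overlapped. In the fit of all 18 samples, which takes in the spread of the HKC-8 cells, both calls were lost (adjusted p = 0.302 in RCC4 and 0.346 in HepG2), and the HepG2 call was also lost without normoxic replicate 1 (-0.19, adjusted p = 0.0778) or hypoxic replicate 2 (-0.21, adjusted p = 0.0837). THRSP, a small lipogenic regulator (chr11:77774907-77779397, plus strand), had only 4, 1 and 5 counts in normoxic and 13, 15 and 21 counts in hypoxic HKC-8 samples. Its log2 fold change was 2.24 (SE 0.58, adjusted p = 0.0276), which did not pass when normoxic replicate 1 or 2 or hypoxic replicate 1 or 3 was left out (1.85 to 2.41, adjusted p up to 0.0932). Of the THRSP transcript 4.68% overlaps NDUFC2 on the other strand.

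The desaturases put in the double bonds and use molecular oxygen. SCD, stearoyl-CoA desaturase, which makes oleate (chr10:102106990-102124583, plus strand), rose in every line. It had 1110, 978 and 1041 CPM in normoxic and 2287, 1626 and 1837 CPM in hypoxic HKC-8 samples (0.88, SE 0.13, adjusted p = 0.00243). RCC4 samples went from 379, 401 and 437 CPM to 703, 657 and 728 CPM (0.78, SE 0.04, adjusted p = 6.48e-13). HepG2 samples went from 1719, 1382 and 1684 CPM to 2293, 2107 and 2310 CPM (0.49, SE 0.08, adjusted p = 0.000343). No hypoxic sample overlapped the normoxic ones of its line. Its paralog SCD5 fell in RCC4 cells (-0.16, adjusted p = 0.00177), where it had 28.4% of the stearoyl-CoA desaturase level per kilobase in normoxia and 17.1% in hypoxia. In HepG2 cells SCD5 had 6 to 13 counts per sample.

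FADS1 and FADS2, the delta-5 and delta-6 desaturases of polyunsaturated fatty acids, lie on opposite strands of chromosome 11 (chr11:61567099-61596790, minus strand, and chr11:61560452-61634826, plus strand). In this annotation the span of FADS1 falls within that of FADS2. FADS2 had 392, 394 and 488 CPM in normoxic and 710, 653 and 686 CPM in hypoxic HKC-8 samples, without overlap (0.69, SE 0.10, adjusted p = 0.00281). FADS1 went from 291, 265 and 352 CPM to 466, 362 and 462 CPM in the same cells (0.51, SE 0.13, adjusted p = 0.0268). That call was lost without normoxic replicate 1 or 2 or hypoxic replicate 1 or 3 (0.42 to 0.48, adjusted p up to 0.108). In RCC4 cells FADS1 fell slightly, from 223, 230 and 228 CPM to 202, 192 and 215 CPM (-0.16, SE 0.04, adjusted p = 0.00148, but 0.241 in the fit of all 18 samples). FADS2 was at 0.08 in RCC4 and 0.06 in HepG2 cells and FADS1 at -0.04 in HepG2 cells, none of them past the test, but FADS2 passed in RCC4 cells without hypoxic replicate 2 (0.13, adjusted p = 0.0146). FADS3 fell by 0.10 in RCC4 cells (adjusted p = 0.0314).

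Among the elongases, ELOVL6, which takes palmitate to stearate (chr4:110967002-111120355, minus strand), moved in opposite directions between lines. HKC-8 samples had 34.9, 33.4 and 38.7 CPM in normoxia and 19.8, 19.1 and 18.1 CPM in hypoxia (-0.91, SE 0.09, adjusted p = 0.000414). HepG2 samples had 38.9, 34 and 41.6 CPM against 25.9, 23.1 and 28.4 CPM (-0.56, SE 0.09, adjusted p = 0.000304). RCC4 samples, at a lower level, went up from 11.0, 10.4 and 10.4 CPM to 13.6, 14.1 and 14.6 CPM (0.42, SE 0.08, adjusted p = 9.86e-05). In each line the groups were apart. ELOVL7, an elongase of long saturated chains (chr5:60047618-60140101, minus strand), fell in HepG2 cells from 14.1, 13.2 and 16.4 CPM to 10.4, 9.90 and 7.37 CPM (-0.66, SE 0.13, adjusted p = 0.00124). In HKC-8 cells it was at 4.62, 3.35 and 5.19 CPM in normoxia and 7.62, 5.40 and 7.81 CPM in hypoxia (0.66, SE 0.21, adjusted p = 0.0493). This HKC-8 call was close to the threshold and was lost without normoxic replicate 1 or 2 or hypoxic replicate 1 or 3 (0.50 to 0.70, adjusted p up to 0.164). Normoxic RCC4 cells had the most ELOVL7, at 27.2 CPM per kilobase against 1.13 in HKC-8 and 3.77 in HepG2 cells. There its change was 0.08 (adjusted p = 0.0997), with hypoxic samples above normoxic ones. ELOVL5, the elongase of polyunsaturated chains, fell in RCC4 (-0.15, adjusted p = 0.000452) and HepG2 cells (-0.40, adjusted p = 0.000595). In HepG2 cells ELOVL1 fell (-0.33, adjusted p = 0.00974) and ELOVL2 rose (0.20, adjusted p = 0.0164).

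Of the long-chain acyl-CoA synthetases, ACSL1 (chr4:185676749-185747972, minus strand) fell most. HepG2 samples had 79.9, 75.5 and 90.0 CPM in normoxia and 46.1, 42.4 and 51.3 CPM in hypoxia, without overlap (-0.81, SE 0.08, adjusted p = 5.09e-06). In RCC4 cells ACSL1 was at 42.3, 42.3 and 45.4 CPM against 38.3, 37.7 and 41.4 CPM (-0.14, SE 0.05, adjusted p = 0.029). This small fall was not called without normoxic replicate 3, hypoxic replicate 1 or hypoxic replicate 2 (-0.13 to -0.11, adjusted p up to 0.122) nor in the fit of all 18 samples (adjusted p = 0.241). HKC-8 samples of ACSL1 stood between 62.1 and 77.8 CPM in both conditions (0.10, SE 0.09, adjusted p = 0.456). ACSL3, which sits on the endoplasmic reticulum and lipid droplets, rose in HKC-8 (0.34, adjusted p = 0.0409) and HepG2 cells (0.31, adjusted p = 0.00909) and fell in RCC4 cells (-0.11, adjusted p = 0.00882). The HKC-8 call of ACSL3 was lost without normoxic replicate 1 or 2 or hypoxic replicate 1. With the replicate block it was kept (adjusted p = 0.000842). ACSL4, which prefers arachidonate, rose in RCC4 cells by 0.13 (adjusted p = 0.00399).

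Glycerol-3-phosphate acyltransferases make the first esterification. GPAM, the mitochondrial enzyme (chr10:113909623-113975135, minus strand), had 174, 176 and 179 CPM in normoxic and 73.4, 72.1 and 63.8 CPM in hypoxic HepG2 samples. The groups were far apart, and GPAM had the largest fall of any member in any line (-1.34, SE 0.06, adjusted p = 3.06e-09). It fell in HKC-8 cells too, from 56.6, 52.2 and 49.3 CPM to 29.1, 34.8 and 29.6 CPM (-0.75, SE 0.10, adjusted p = 0.00159). RCC4 samples stood between 18.2 and 20.1 CPM in both conditions (-0.04, SE 0.06, adjusted p = 0.618). AGPAT9, now named GPAT3 (chr4:84457067-84527028, plus strand), fell in RCC4 cells from 11.7, 10.8 and 11.1 CPM to 5.46, 8.09 and 7.60 CPM (-0.66, SE 0.11, adjusted p = 3.73e-05). In HepG2 cells AGPAT9 was at 23.7, 32.9 and 43.6 CPM in normoxia and 18.4, 22 and 31.0 CPM in hypoxia. Those groups overlapped (-0.49, SE 0.20, adjusted p = 0.0659). The change passed without normoxic replicate 1 (-0.69, adjusted p = 0.00839), without hypoxic replicate 3 (-0.72, adjusted p = 0.0196) and without a filter on low counts (adjusted p = 0.0204). In HKC-8 cells AGPAT9 had 15 to 30 counts per sample. AGPAT6, now GPAT4, fell by 0.20 in HepG2 cells (adjusted p = 0.0166). Per kilobase, GPAM made up 54.2% of the level of the 3 acyltransferases in normoxic HepG2 cells and 37% in hypoxic ones.

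The next acyl chain is added by the lysophosphatidic acid acyltransferases. AGPAT2, the adipose and liver form whose loss causes congenital lipodystrophy (chr9:139567595-139581909, minus strand), had 4.56, 3.76 and 3.77 CPM in normoxic and 15.9, 15.1 and 17.4 CPM in hypoxic HepG2 samples. The 3.99-fold rise (log2 2.00, SE 0.11, adjusted p = 1.46e-08) was the largest of any member outside the low counts of THRSP. In HKC-8 cells AGPAT2 was at 16.3, 14.6 and 12.1 CPM against 18.3, 22.7 and 13.8 CPM, which overlapped (0.35, SE 0.18, adjusted p = 0.198, but 0.0247 with the block and 0.0441 in the fit of all 18 samples). RCC4 samples, the highest of the 3 lines, stood between 74.4 and 80.6 CPM (0.05, SE 0.04, adjusted p = 0.359). AGPAT2 thus went from 5.64% to 17.4% of the level per kilobase of the 5 AGPAT genes in HepG2 cells, and held 53.9% and 50.3% in normoxic and hypoxic RCC4 cells.

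AGPAT5, an isoform of mitochondria (chr8:6566163-6619024, plus strand), rose in all 3 lines. It went from 111, 105 and 94.8 CPM to 128, 130 and 142 CPM in HKC-8 cells (0.37, SE 0.08, adjusted p = 0.0167). In RCC4 cells it went from 88.7, 88.2 and 85.3 CPM to 123, 130 and 121 CPM (0.52, SE 0.04, adjusted p = 1.64e-10). HepG2 samples went from 82.6, 80.4 and 90.2 CPM to 122, 119 and 119 CPM (0.51, SE 0.06, adjusted p = 2.13e-05). Every hypoxic sample exceeded every normoxic one of its line. The HKC-8 call was lost without hypoxic replicate 1 (0.40, adjusted p = 0.0513) or 3 (0.32, adjusted p = 0.0557). AGPAT1, AGPAT3 and AGPAT4 passed in no line. Values of AGPAT1 are uncertain, because 47.4% of its transcript overlaps PPT2-EGFL8 on the other strand and the strand setting of the counting is not given in the sources used here.

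**Figure D2:**
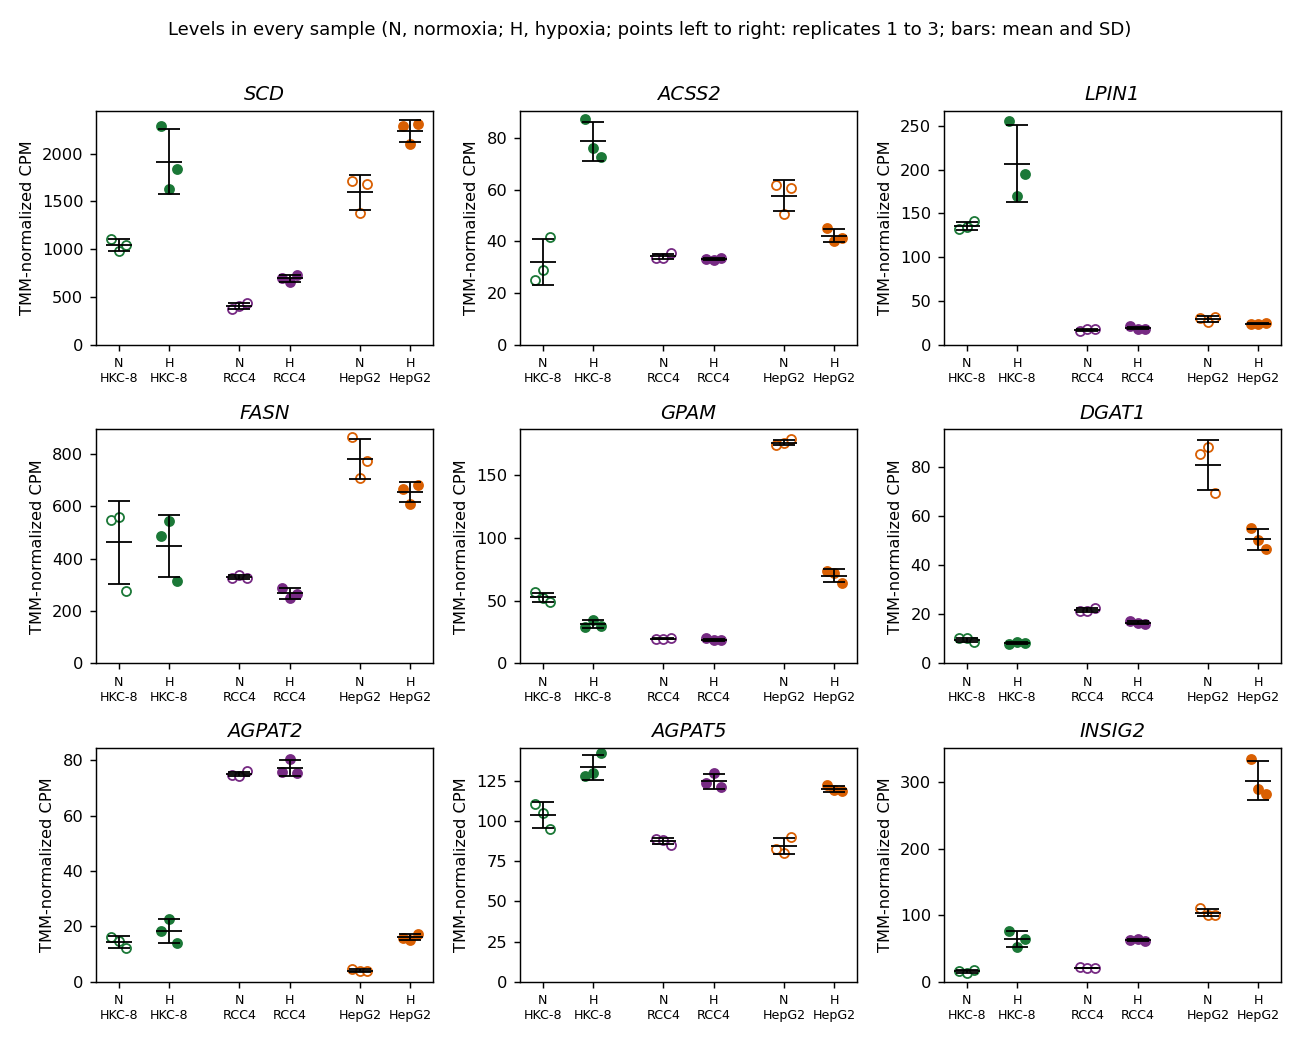
TMM-normalized CPM of SCD, ACSS2, LPIN1, FASN, GPAM, DGAT1, AGPAT2, AGPAT5 and INSIG2 in each of the 18 samples, with open points for normoxia, filled points for hypoxia and bars for the mean and SD of 3 samples. GPAM drops and AGPAT2 climbs without overlap in HepG2 cells, and HKC-8 replicate 3 of FASN is low in both conditions (278 and 316 CPM).

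The lipins dephosphorylate phosphatidic acid to diacylglycerol. LPIN1 (chr2:11817721-11967535, plus strand) had 132, 135 and 141 CPM in normoxic and 255, 170 and 195 CPM in hypoxic HKC-8 samples (0.61, SE 0.13, adjusted p = 0.0144). The groups did not overlap, although the call was lost without normoxic replicate 1 (0.58, adjusted p = 0.0683). In HepG2 cells LPIN1 fell from 30.8, 25.9 and 32.2 CPM to 23.1, 24.1 and 25.3 CPM (-0.29, SE 0.09, adjusted p = 0.015). That fall did not pass without normoxic replicate 1, hypoxic replicate 1 or hypoxic replicate 2 (-0.29 to -0.26, adjusted p up to 0.0682) or in the fit of all 18 samples (adjusted p = 0.0636). RCC4 samples went from 15.9, 17.8 and 17.4 CPM to 21, 18.4 and 17.8 CPM (0.17, SE 0.07, adjusted p = 0.06), which passed without hypoxic replicate 3 (0.22, adjusted p = 0.0308) and without a filter on low counts (adjusted p = 0.0448).

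LPIN2 (chr18:2885294-3013142, minus strand) and LPIN3 rose in every line. LPIN2 had 39.7, 35.3 and 33.0 CPM in normoxic and 50.0, 51.4 and 54.1 CPM in hypoxic RCC4 samples (0.53, SE 0.06, adjusted p = 7.08e-08). In HepG2 cells it had 129, 115 and 140 CPM against 182, 174 and 179 CPM (0.48, SE 0.07, adjusted p = 0.000116). The HKC-8 samples had 35.0, 35.2 and 41.8 CPM against 50.8, 45.9 and 48.1 CPM (0.37, SE 0.10, adjusted p = 0.026), a call lost without normoxic replicate 1 or 2 or hypoxic replicate 1 or 3 (0.32 to 0.37, adjusted p up to 0.116). All of these groups were apart. LPIN3 had log2 fold changes of 0.45 (HKC-8), 0.35 (RCC4) and 0.39 (HepG2 cells; adjusted p = 0.0184, 0.00135 and 0.00449), and 13.9% of its transcript overlaps EMILIN3 on the other strand. The HKC-8 call of LPIN3 was lost without normoxic replicate 1 or 2 or hypoxic replicate 1. With the replicate block it was kept (adjusted p = 0.00155). The share of each lipin differed between lines, and LPIN1 held 70.5% of the lipin level per kilobase in normoxic HKC-8 cells, 27.8% in RCC4 and 17.3% in HepG2 cells.

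The last acyl chain is added by DGAT1 or DGAT2. DGAT1 (chr8:145538247-145550573, minus strand) had 85.2, 88.2 and 69.2 CPM in normoxic and 55.1, 50.0 and 46.5 CPM in hypoxic HepG2 samples (-0.68, SE 0.09, adjusted p = 8.38e-05). It fell in RCC4 cells from 21.1, 21.4 and 22.7 CPM to 17.1, 16.4 and 16.1 CPM (-0.39, SE 0.06, adjusted p = 2.56e-05). Both falls were without overlap. HKC-8 samples had 10.1, 10.1 and 8.72 CPM against 7.71, 8.73 and 8.10 CPM (-0.23, SE 0.12, adjusted p = 0.208), and 3.75% of the DGAT1 transcript overlaps HSF1 on the other strand. DGAT2 (chr11:75470557-75512580, plus strand) was a little lower in hypoxic HepG2 cells, at 66.5, 70.5 and 70.8 CPM against 58.4, 62.6 and 61.8 CPM (-0.19, SE 0.06, adjusted p = 0.0285). This small difference did not pass without normoxic replicate 2 or any 1 hypoxic replicate (-0.21 to -0.16, adjusted p up to 0.142) or in the fit of all 18 samples (adjusted p = 0.383). In HKC-8 cells DGAT2 had 4.44, 6.19 and 6.28 CPM against 6.83, 8.43 and 6.93 CPM (0.40, SE 0.17, adjusted p = 0.132, and 0.0207 with the block). RCC4 samples had 29, 23 and 3 counts of DGAT2 in normoxia and 11, 10 and 11 in hypoxia (-0.77, SE 0.54, adjusted p = 0.251), which passed without normoxic replicate 3 (-1.23, adjusted p = 0.0394). MOGAT1, the monoacylglycerol acyltransferase, had 0 counts in each HKC-8 sample and 1 count in all RCC4 samples together, and 32 to 50 counts in each HepG2 sample.

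Genes around the pathway were taken from lists of precursor supply and partner enzymes (19 genes), transcriptional regulators of lipogenesis (14 genes) and triglyceride breakdown (6 genes). Among the regulators, INSIG2, a retention protein that keeps SREBP in the endoplasmic reticulum, rose most. It went from 16.8, 13.5 and 17.5 CPM to 76.3, 52.3 and 64.2 CPM in HKC-8 cells (2.02, SE 0.15, adjusted p = 6.63e-05), from 21.4, 20.4 and 20.5 CPM to 62.6, 64.7 and 60.7 CPM in RCC4 cells (1.60, SE 0.05, adjusted p = 1.24e-17), and from 110, 100.3 and 101 CPM to 335, 289 and 281 CPM in HepG2 cells (1.54, SE 0.07, adjusted p = 3.06e-09). Its groups were apart in each line. INSIG1, its sterol-responsive relative, rose in HKC-8 cells from 82.3, 74.2 and 108 CPM to 272, 160 and 189 CPM (1.24, SE 0.20, adjusted p = 0.00403) and in RCC4 cells by 0.36 (adjusted p = 2.53e-07, but 0.0859 in the fit of all 18 samples). In HepG2 cells INSIG1 had only 8 to 20 counts per sample. SREBF1, which encodes SREBP-1, rose in HKC-8 (0.41, adjusted p = 0.0147, but 0.0602 without hypoxic replicate 1) and HepG2 cells (0.41, adjusted p = 0.00047) and fell in RCC4 cells (-0.34, adjusted p = 4.87e-06). PPARG, a nuclear receptor of lipid storage, rose in HepG2 cells from 17.7, 18.1 and 19.7 CPM to 38.4, 35.7 and 42.2 CPM (1.06, SE 0.08, adjusted p = 3.84e-07), and fell in RCC4 cells (-0.23, adjusted p = 0.000383, but 0.0541 in the fit of all 18 samples). In HKC-8 cells PPARG was at -0.88 (SE 0.32, adjusted p = 0.0803), which passed in the fit of all 18 samples (adjusted p = 0.000903).

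By count, 6 of 13 regulators tested rose and 1 fell in HKC-8 cells, 5 rose and 5 fell of 13 in RCC4 cells, and 4 rose and 3 fell of 14 in HepG2 cells, with median log2 fold changes of 0.11, -0.03 and 0.05. Over all genes tested, as above, 11.2% rose and 9.12% fell in HKC-8, 25.9% and 24.2% in RCC4, and 19.9% and 19.2% in HepG2 cells, and the counts of this list and of the following lists are to be read against those shares. MLX, a partner of the carbohydrate response factor, was the regulator that fell in all 3 lines (-0.49, -0.24 and -0.36), and PRKAA2, an AMPK subunit, rose in all 3 (0.38, 0.45 and 0.63). MLX, PRKAA2 and the genes in the next sentence were chosen after their values were seen. MLXIPL, the carbohydrate response factor ChREBP, fell in HepG2 cells from 63.4, 65.0 and 52.2 CPM to 32.7, 34.6 and 27.9 CPM (-0.92, SE 0.10, adjusted p = 8.55e-06), and GPD1L, a glycerol-3-phosphate dehydrogenase relative, fell in all 3 lines (-0.56, -0.29 and -0.59). Of the precursor and partner enzymes, 1 rose and 3 fell of 14 tested in HKC-8, 1 rose and 10 fell of 13 in RCC4, and 1 rose and 5 fell of 17 in HepG2 cells, with medians of -0.15, -0.18 and -0.08. GPD1, which makes glycerol-3-phosphate, fell in HepG2 cells from 23.6, 26.5 and 22.3 CPM to 9.86, 11.7 and 10.1 CPM (-1.19, SE 0.10, adjusted p = 8.99e-07). ACLY, the citrate lyase that supplies acetyl-CoA, was at 0.27 in HKC-8 (adjusted p = 0.0626, but 0.00461 with the block, 0.0477 without normoxic replicate 2, 0.0328 with DESeq2 and 0.0126 in the fit of all 18 samples), 0.05 in RCC4 and -0.08 in HepG2 cells. MOGAT3 rose in HepG2 cells (0.81, adjusted p = 4.07e-05) and had 21, 37 and 9 counts in normoxic and 7, 6 and 10 counts in hypoxic RCC4 samples (-1.53, SE 0.52, adjusted p = 0.018). Without RCC4 normoxic replicate 2 (-1.0, adjusted p = 0.192) or hypoxic replicate 2 (-1.37, adjusted p = 0.0711) the MOGAT3 change did not pass. In the breakdown list 2 of 6 tested rose and 0 fell in HKC-8, 1 of 4 rose and 3 fell in RCC4, and 1 of 3 rose and 1 fell in HepG2 cells, with medians of 0.28, -0.24 and -0.34.

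Whether the hypoxic response differed between lines was tested as an interaction in fits of 12 samples. HKC-8 and HepG2 cells share the labelled exposure, and the response of 9 members was lower and that of 1 higher in HepG2 cells of 33 tested, where 4.28% of all genes were lower and 5.02% higher. The difference of log2 fold changes, HepG2 minus HKC-8, was -1.75 for ACSS2 (SE 0.21, adjusted p = 8.89e-05), -1.32 for ELOVL7 (SE 0.26, adjusted p = 0.00493), -0.91 for ACSL1 (SE 0.13, adjusted p = 0.000466), -0.90 for LPIN1 (SE 0.17, adjusted p = 0.00366) and 1.65 for AGPAT2 (SE 0.23, adjusted p = 0.000427). FADS2, FADS1, GPAM, AGPAT6 and DGAT2 also differed (-0.62 to -0.37, adjusted p = 0.0112, 0.0354, 0.00588, 0.0415 and 0.0404). The difference of FADS1 held in only 2 of the 12 fits that left out 1 sample and that of DGAT2 in 4 (adjusted p up to 0.0944 and 0.104), and DGAT2 did not pass in the fit of all 18 samples (adjusted p = 0.0828). With the replicate block 13 members were lower and 3 higher, where 9.06% of all genes were lower and 11.0% higher. Those gained were SCD (-0.37, adjusted p = 0.0117), ELOVL6 (0.34, adjusted p = 0.0341), DGAT1 (-0.44, adjusted p = 0.0113) and AGPAT9 (-1.04, adjusted p = 0.0162) among the genes described above, and ELOVL5 and ACSL4. Without the block, SCD passed when HKC-8 hypoxic replicate 2 was left out (-0.51, adjusted p = 0.0327) and DGAT1 when HepG2 normoxic replicate 3 was left out (-0.54, adjusted p = 0.0244) and in the fit of all 18 samples (-0.44, adjusted p = 0.0283). For LPIN2 and AGPAT5, which rose in both lines, the difference was 0.11 (SE 0.12) and 0.14 (SE 0.11) and did not pass.

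RCC4 cells differ from the other lines in oxygen and duration by their labels, so cell line and exposure cannot be told apart in the comparisons with them. Against HKC-8 cells, 4 of 32 members had a higher and 6 a lower response in RCC4 cells, where 7.87% of all genes were higher and 7.29% lower. ELOVL6 stood out with 1.30 (SE 0.11, adjusted p = 1.13e-05), followed by GPAM (0.69, SE 0.11, adjusted p = 0.00123) and ACACA (0.43, SE 0.08, adjusted p = 0.00386), while ACSS2 was at -1.36 (SE 0.20, adjusted p = 0.000804). AGPAT9 was at -1.25 (adjusted p = 0.0176), a call lost without HKC-8 normoxic replicate 1 (-1.12, adjusted p = 0.0538) and in the fit of all 18 samples (adjusted p = 0.0771). Differences that passed with a sample left out and not with all were ELOVL7 (without HKC-8 normoxic replicate 3 or hypoxic replicate 2, adjusted p = 0.0163 and 0.00811), LPIN1 (without HKC-8 hypoxic replicate 2, adjusted p = 0.0147), AGPAT2 (without HKC-8 hypoxic replicate 3, adjusted p = 0.0426) and DGAT2 (without RCC4 normoxic replicate 3, adjusted p = 0.0126), of which ELOVL7 also passed with DESeq2 (adjusted p = 0.0276). Against RCC4 cells, 3 of 33 members had a higher and 10 a lower response in HepG2 cells, where 11.7% of all genes were higher and 10.9% lower. The largest of these were AGPAT2 (1.96, SE 0.10, adjusted p = 8.49e-11), GPAM (-1.29, SE 0.08, adjusted p = 1.85e-09) and ELOVL6 (-0.97, SE 0.12, adjusted p = 7.42e-06). In this comparison 7 members in all were called in the fit of 18 samples, where ACSS2, LPIN1 and SCD did not pass (adjusted p = 0.174, 0.0785 and 0.223). Most of ELOVL1, ELOVL5, ACSL3 and AGPAT1, which were called in the fit of 12 samples, also did not pass in the fit of 18. The share of all genes called in that fit was not counted. DGAT1 passed without HepG2 normoxic replicate 3 or hypoxic replicate 1 (adjusted p = 0.00419 and 0.0494), and DGAT2 without RCC4 normoxic replicate 3 (adjusted p = 0.00912). SCD (-0.29, adjusted p = 0.0446) passed in 4 of the 12 fits that left out 1 sample and did not pass with median-of-ratios size factors (adjusted p = 0.057). The 3 comparisons share samples, and the values are given side by side without a test between them.

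**Figure D3:**
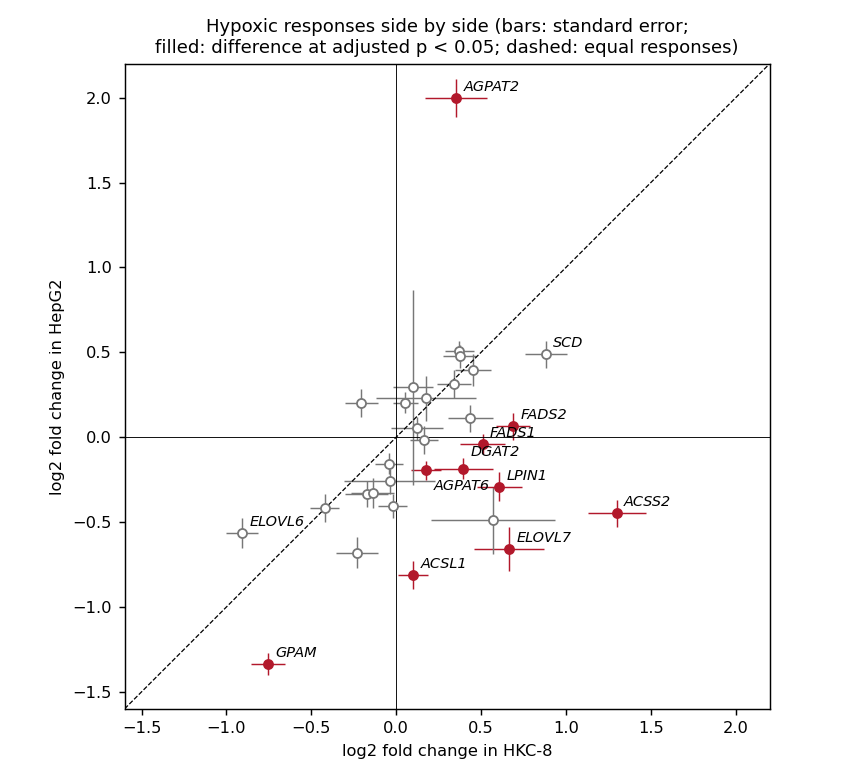
Hypoxic log2 fold change of each member tested in both lines, HKC-8 on the horizontal and HepG2 on the vertical axis, with bars for the standard error and filled points where the difference passed adjusted p under 0.05. AGPAT2 (0.35 and 2.00) lies far above the dashed line of equal responses, and ACSS2 (1.30 and -0.45) and ELOVL7 (0.66 and -0.66) far below it.

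In normoxia most members stood at different levels in the 3 lines, as most genes did, and cell line cannot be told apart here from depth, which was higher in HKC-8 samples. HepG2 cells were higher than HKC-8 cells for 19 of 33 members and lower for 12, where 42.6% of all genes were higher and 40.5% lower. HepG2 cells were higher than RCC4 cells for 20 members and lower for 12, where 45.3% were higher and 38.1% lower and the median of all genes was 0.11. RCC4 cells were higher than HKC-8 cells for 13 and lower for 17, where 39.4% were higher and 41.4% lower. In bulk RNA, fewer cells that express a gene and less of its RNA per cell cannot be told apart.

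Per kilobase of transcript, SCD was the highest member in normoxic HepG2 cells (304 CPM per kilobase, SD 35.3, n = 3) and HKC-8 cells (199, SD 12.6), and ELOVL5 in RCC4 cells (146, SD 3.24). In HKC-8 cells FADS2 (137) and ELOVL5 (111) came next to SCD, and in RCC4 cells ELOVL1 (117) and SCD (77.3) followed ELOVL5. In HepG2 cells ACSL4 (104, SD 13.4), FASN (92.4, SD 9.13) and ACSL3 (78.6, SD 10.3) came after SCD, and the samples of ACSL4 and FASN overlapped. Several esterification genes stood higher in HepG2 cells than in both kidney lines. GPAM was higher than in HKC-8 by 1.76 and than in RCC4 cells by 3.18 on the log2 scale (SE 0.07 for both, adjusted p = 1.19e-11 and 5.6e-14), and DGAT1 by 3.09 and 1.91 (adjusted p = 3.85e-12 and 4.04e-10). DGAT2 was higher by 3.64 and 7.51 (adjusted p = 5.32e-10 and 8.38e-12). FASN was higher by 0.78 and 1.26 (adjusted p = 0.00171 and 3.14e-05). AGPAT2, in contrast, was lower in normoxic HepG2 cells than in HKC-8 cells (log2 fold change -1.81, adjusted p = 4.37e-09) and than in RCC4 cells (-4.21, adjusted p = 7.3e-13). ACACA (-0.92 and -0.38) and AGPAT6 (-0.56 and -0.29) were also called lower than in HKC-8 and RCC4 cells. Against each kidney line 4 of 5 desaturases were lower and 1 higher. Of 5 lysophosphatidic acid acyltransferases, 3 were lower against each, with 2 higher against HKC-8 and 1 against RCC4 cells. Some members were close to absent from a line, such as ELOVL2 in RCC4 cells (0 to 15 counts per sample against 105 to 116 CPM in HKC-8 cells), SCD5 and AGPAT4 in HepG2 cells (3 to 24 counts) and AGPAT9 in HKC-8 cells (0.180 to 0.364 CPM). The summed level per kilobase of DGAT1 and DGAT2 was 50.9 (SD 2.53) in normoxic HepG2 cells against 4.98 (SD 0.364) in HKC-8 and 6.10 (SD 0.121) in RCC4 cells, and it was 39.1 (SD 0.665) in hypoxic HepG2 cells.

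**Figure D4:**
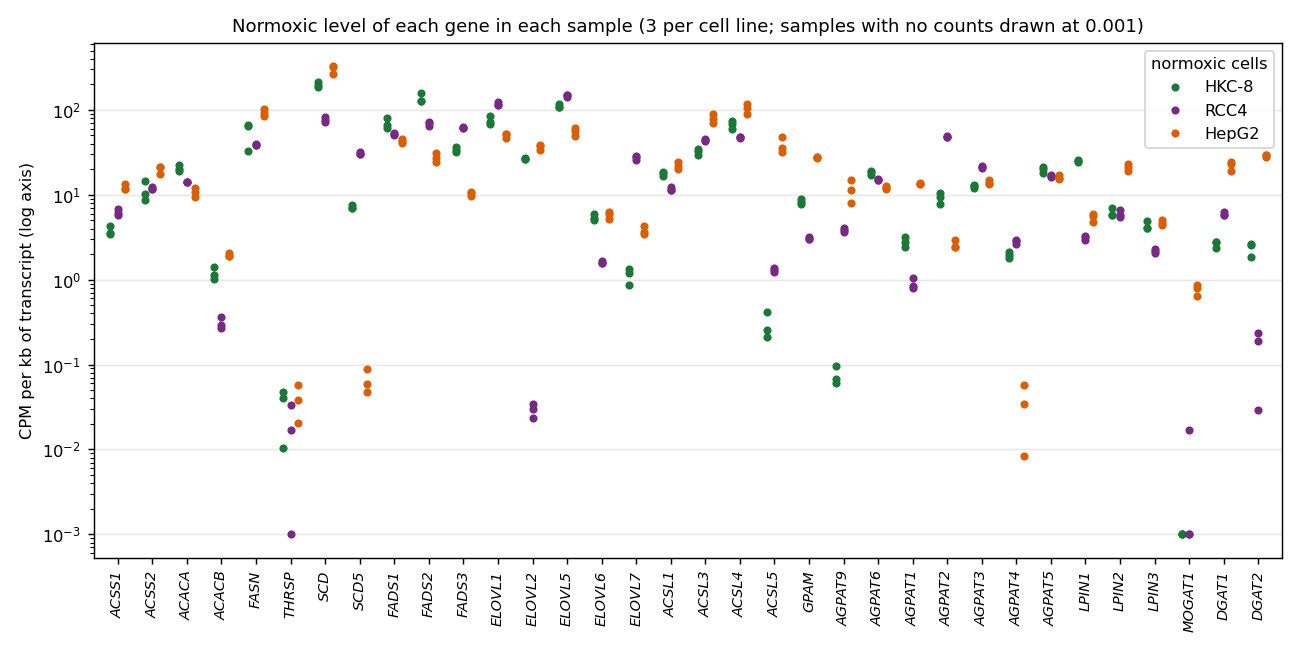
Level of each member in the 9 normoxic samples, as CPM per kilobase of transcript on a log axis, with 3 points per cell line and samples without counts drawn at 0.001. SCD is highest in HepG2 and HKC-8 cells (304 and 199 on average), and DGAT2, GPAM and DGAT1 stand higher in HepG2 cells than in both kidney lines.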

How the data were processed

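PolyA+ RNA-seq libraries (ScriptSeq v2) were analysed from 18 samples in 6 groups of 3, grouped by their labels. The authors trimmed adapters, aligned reads to GRCh37 with TopHat2 2.0.8b and Bowtie 1.0.0, dropped fragments that did not map uniquely with SAMtools 0.1.19, and deposited raw read counts per UCSC gene from HTSeq 0.5.4p3 in its intersection-strict mode, without normalization. Genes with near-identical copies lose counts by that step. The submitters' processing notes also name Trim Galore 0.3.3. The strand setting of the counting is not given in the sources used here.

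Counts were tested with edgeR 4.0.16 (R 4.3.3) after filterByExpr and TMM normalization, by the quasi-likelihood test in 1 fit per cell line, in fits of 12 samples for differences of response and in 1 fit of the 9 normoxic samples. P-values were adjusted by Benjamini-Hochberg over all genes tested, and the standard error is the absolute log2 fold change over the square root of F. Levels are TMM-normalized CPM, divided where stated by the length of the GENCODE canonical transcript on GRCh37. Depth limits the precision of low counts, and sampling error there covers counting only. The scripts were tested on simulated counts.

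Alternatives were DESeq2 1.42.0, median-of-ratios size factors, 2 other count filters, 1 fit of all 18 samples, a block for the replicate number, and leaving out 1 sample at a time. The replicate numbers come from the labels. In HKC-8 cells deviations of same-numbered samples correlated at 0.109, 0.453 and 0.447 over 13536 genes, all over the limit of 0.1, so the blocked values are given beside the results they change. Normoxic sample 1 correlated at 0.116 with hypoxic sample 2.

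The members and lists were chosen with earlier results of these data known. Values per sample or their range are given for members called with a log2 fold change of 0.5 or more in size in any line, and for ACACA, FASN, SCD, GPAM, LPIN1, DGAT1 and DGAT2. For THRSP, FADS1, FADS2 and ELOVL7 they are left out in lines where the gene was not called. Other pathway genes are named where called with at least 1, as are SREBF1, INSIG1 and ACLY, and CA9 and VEGFA as checks of hypoxia. One marker gene is not reported here.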

Additional observations from a re-analysis of the deposited data

Results flagged for a closer look

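The results in this section were picked out because the hypoxic response of a gene differed between 2 cell lines by the test of the difference itself (edgeR quasi-likelihood test, adjusted p under 0.05). Each value is a difference of log2 fold changes, with 3 samples in each of the 4 groups behind it.

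Between HepG2 and HKC-8 cells, which share the labelled exposure, the response in HepG2 minus that in HKC-8 cells differed for ACSS2 (-1.75), FADS1 (-0.55), FADS2 (-0.62), ELOVL7 (-1.32), ACSL1 (-0.91), GPAM (-0.58), AGPAT6 (-0.37), AGPAT2 (1.65), LPIN1 (-0.90) and DGAT2 (-0.58). All but AGPAT2 were lower in HepG2 cells. ACSS2, ELOVL7 and LPIN1 were called in opposite directions in these lines.

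Between RCC4 and HKC-8 cells the response in RCC4 minus that in HKC-8 cells differed for ACSS2 (-1.36), ACACA (0.43), SCD5 (-0.41), FADS1 (-0.69), FADS2 (-0.63), ELOVL6 (1.30), ACSL3 (-0.47), ACSL4 (0.31), GPAM (0.69) and AGPAT9 (-1.25). The positive values belong to ACACA, ELOVL6, ACSL4 and GPAM. The labelled oxygen level and duration differ between these lines and cannot be told apart from the cell line.

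Between HepG2 and RCC4 cells the response in HepG2 minus that in RCC4 cells differed for ACSS2 (-0.40), ACACA (-0.44), SCD (-0.29), ELOVL1 (-0.34), ELOVL5 (-0.24), ELOVL6 (-0.97), ELOVL7 (-0.73), ACSL1 (-0.66), ACSL3 (0.43), GPAM (-1.29), AGPAT1 (0.48), AGPAT2 (1.96) and LPIN1 (-0.45). The positive values belong to ACSL3, AGPAT1 and AGPAT2, and AGPAT1 shares much of its transcript with a gene on the other strand. The exposures differ here in the same way. In 1 fit of all 18 samples ACSS2, SCD, LPIN1 and most of ELOVL1, ELOVL5, ACSL3 and AGPAT1 did not pass.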

How the results depend on the processing

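Of 15 counts of members called, 12 kept within 1.5 times their main value under those alternatives with all samples that were run for them. DESeq2, median-of-ratios size factors and the fit of all 18 samples were run for all 15, the 2 other count filters for 13 and the replicate block for 7. The exceptions were the difference between HKC-8 and HepG2 cells (10, and 16 with the replicate block), that between RCC4 and HepG2 cells (13, and 7 in 1 fit of all 18 samples) and the fall in RCC4 cells (10, and 4 in that fit). DESeq2 and median-of-ratios size factors moved none of these counts by over 1.5 times. The causes were not tested. Leaving out 1 sample at a time, HKC-8 calls ranged from 4 to 12 up and 2 to 4 down, and HepG2 calls from 6 to 9 up and 9 to 15 down. RCC4 calls ranged from 6 to 8 up and 8 to 10 down. Members with a different response ranged from 7 to 13 for HKC-8 and HepG2, 8 to 15 for HKC-8 and RCC4, and 9 to 14 for RCC4 and HepG2 cells. Shares of all genes called were not counted in these fits, nor in the fit of all 18 samples.

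In RCC4 and HepG2 cells the samples share only a number (correlations of same-numbered samples -0.010, 0.033 and 0.015, and 0.165, 0.062 and 0.184). With the replicate block 6 members rose and 10 fell in RCC4 cells, where 26.2% of all genes rose and 24.5% fell. In HepG2 cells 9 members rose and 15 fell with the block, where 21.7% of all genes rose and 21.3% fell. AGPAT9 was gained there (-0.48, adjusted p = 0.000142). In HepG2 cells every sample correlated best with its own number, a hint from the data and not the design.

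Among the named genes, the sign turned only for changes and differences that were not called in the main fit. The difference of ACACA between HKC-8 and HepG2 was -0.0134 with at least 10 counts in every sample. Those of FADS2 and AGPAT5 between RCC4 and HepG2 were 0.00346 and 0.00996 with DESeq2 and 0.00324 and 0.00983 with median-of-ratios size factors. With 1 sample left out, the difference between HKC-8 and HepG2 ranged from -0.0873 to 0.10 for ACACA, -0.42 to 0.0137 for FASN and -0.0127 to 0.18 for LPIN2. Between RCC4 and HepG2 it ranged from -0.0304 to 0.0417 for AGPAT5, -0.0515 to 0.41 for AGPAT9, -0.0798 to 0.0766 for FADS2, -0.0171 to 0.12 for FASN and -0.12 to 0.0206 for LPIN2, and between HKC-8 and RCC4 from -0.21 to 0.0443 for SCD. The change in hypoxia ranged from -0.30 to 0.16 for FASN in HKC-8 and from -0.00184 to 0.14 for FADS2 in HepG2 cells. Precision is lowest for genes with few counts, such as THRSP.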
